A study of Mus musculus with 48 samples.

Results

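Of the 26899 rows of the count table, 10 held most of the reads in each anti-FLAG precipitate from 4T1, an established mouse line of mammary carcinoma cells. The rows are ENSMUSG00000045999, Filip1l, Jarid2, ENSMUSG00000082697, Tmtc2, Zc3h7a, LOC102639045, Cntnap5b, Kpna1 and Atf2. They were chosen by their measured share of the counts in the precipitates, so that share and its excess over the lysate are given as a description and were not tested. The native RNA immunoprecipitation (RIP) used the M2 FLAG antibody on cells that carried a control vector (vector), FLAG-CNOT7 (CNOT7) or FLAG-CNOT7 with the substitution D40A, E247A/Y260A or M141R. RNA of the lysate (input) was sequenced beside each precipitate. There were 24 RIP libraries and 24 inputs. In each of the 10 groups there were 5 samples, numbered 6 to 10 in the labels, except for D40A RIP and D40A input, with 4 each and no number 7. By the study's methods the FLAG-tagged sequence was human CNOT7 cDNA behind the murine Pol2 promoter, delivered by lentivirus and selected with blasticidin, and each input came from a part of the same lysate. Vector cells carried no FLAG-tagged protein but went through the same precipitation. The labels describe the input as depleted of rRNA and do not say this of the RIP, so depletion and precipitation cannot be told apart in any difference between RIP and input.

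CNOT7 is a deadenylase of the CCR4-NOT complex, which shortens the poly(A) tail of mRNAs and thereby marks them for decay. In a native RIP a tagged protein is pulled out of a lysate with the RNA bound to it, and the same pull-down from cells without the tag gives the RNA carried along by antibody and beads. The substitution D40A lies in the catalytic site, M141R disturbs the contact with the scaffold CNOT1 and E247A/Y260A the contact with TOB proteins, which are adaptors to RNA-binding proteins.

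Library totals ranged from 1305627 to 10719137 counts in the RIP and from 337861 to 826768 in the inputs. The mouse Cnot7 row held 6 to 178 counts in the 19 inputs of FLAG-CNOT7 cells and 63 to 104 in the 5 vector inputs, so it did not separate the constructs, whose cDNA is human. M141R input 9 and CNOT7 input 10 stood apart in the members, and input means and ratios of the members that they move by over 1.5 times are also given without them, a choice made after seeing the data. Epithelial markers checked the label of the cells. All 8 were in the table, but together they held only 0.00732% of the input counts on average, from 0.00207% to 0.0157%, and Krt14 was at 0 in every input. Krt8 reached at most 6 counts and Epcam at most 34 counts in an input library. The fibroblast, immune and endothelial markers reached at most 5, 4 and 12 counts together. In 12 of 14 listed abundant mRNAs found in the table, the sum was 0.0206% of the input counts, and Actb reached at most 38 counts in an input. The markers and abundant messages were thus at low counts in both kinds of library, and their part in the results was not tested. In bulk samples, fewer cells of a type and less RNA per cell cannot be told apart. A directional kit was used, and the strand used for counting is not given in the sources used here, which bears on every row of the table.

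By identifier, 8 of the 10 rows were found in GENCODE M21, and their positions are given from it on the GRCm38 build. The submitters' processing notes name mm9 as the build, and the count table holds no coordinates. ENSMUSG00000045999 and ENSMUSG00000082697, which held ranks 1 and 4 by RIP counts, were not found in that annotation and carry no gene symbol, so neither a position nor a sequence is given for them. Of the 8 placed rows, 4 lay on chromosome 16, which holds 2.95% of the annotated rows of the table. Filip1l, named for likeness to a protein that interacts with filamin A, lies at chr16:57353093-57573126 on the plus strand. Zc3h7a, which encodes a zinc finger protein that binds RNA, lies at chr16:11136592-11176393 on the minus strand. LOC102639045 is annotated as the antisense RNA Gm15564 at chr16:35966752-35983230 on the minus strand. Kpna1, an importin alpha that carries proteins into the nucleus, lies at chr16:35978750-36037131 on the plus strand and shares 4481 bases with LOC102639045 on the opposite strand. Jarid2, a partner of a Polycomb repressive complex, lies at chr13:44729474-44921643 on the plus strand. Tmtc2, a protein of the endoplasmic reticulum that adds mannose to cadherins, lies at chr10:105187663-105574451 on the minus strand. Cntnap5b, a neurexin-like membrane protein, lies at chr1:99772765-100485942 on the plus strand. Atf2, a transcription factor of the leucine zipper type, lies at chr2:73816509-73892639 on the minus strand.

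These genes are 16479 to 713178 bases long, and exons make up between 0.730% (Cntnap5b) and 23.0% (Zc3h7a) of their length. The table does not say where in a gene the reads lay. Shares below are shares of counts, not corrected for length, so their order is no order of RNA level. Filip1l lies wholly within Cmss1 on the opposite strand. Filip1l held 10.5% of the RIP counts on average and Cmss1 0.0161%, with 155 to 1506 counts in a RIP library. In the inputs the means were 0.509% for Filip1l and 0.0826% for Cmss1. Within Zc3h7a, the opposite-strand miRNA gene Gm23935 had 2 to 245 counts in the RIP libraries and 0 counts in every input, the upper limit of a count of 0 being 3 counts in a library. Without the strand of counting, the values of such overlapping pairs are uncertain.

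The strand was therefore looked at over the table, a choice made after seeing the data. In GENCODE M21, 945 pairs of a protein-coding gene and an annotated antisense gene shared at least 100 bases of exon and were both in the table. Of the 661 pairs with at least 100 counts over all inputs, the antisense gene had more counts in 493 (74.6%), with a median log2 ratio of antisense to coding of 3.01. In the RIP it was 366 of 449 pairs (81.5%). Some abundant noncoding RNAs showed the same order. Rmrp, the RNA of a mitochondrial RNA processing enzyme, held 0.0374% of the input counts, and Ccdc107, which shares 124 exon bases with it on the other strand, held 13.02%. Malat1, an abundant nuclear RNA, held 0.0317% and the opposite Gm37376 0.338%. The small nucleolar RNA Snora73b held 7.25e-05% and the opposite Gm17300 0.766%. In these 3 pairs the opposite row was higher in 24 of 24 inputs. Gapdh was the only listed abundant mRNA with such a row in the table, and there the order was the other way, with 0.000660% for Gapdh and 0.000433% for the opposite Iffo1, which was higher in 2 of 24 inputs. In most but not all of these pairs the larger count thus lay opposite to the annotated RNA. A count may therefore be of RNA transcribed from the strand opposite to the named gene, and a count near 0 does not show that the named RNA was scarce.

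The annotated transcripts of the 8 placed rows were compared with 9 annotated noncoding RNAs, among them the 5.8S rRNA gene n-R5-8s1, the mitochondrial rRNAs mt-Rnr1 and mt-Rnr2, Rn7s1, Rn7sk and Rmrp. No match was found (blastn, E value at most 1e-10) in 78 transcripts of these rows, which covers exons only. Introns and full-length nuclear rRNA were not compared here. For LOC102639045 alone, exact runs shared with transcripts of other genes were searched. On either strand, 23 genes held a run of at least 25 bases from any of its transcripts, among them Actr8 and Mthfsd with 40 bases and Ankrd12 with 39. The longest was in a transcript of 402 bases, which shared 52 bases with Lars2, the gene of the mitochondrial leucyl-tRNA synthetase, and 36 with AA474408. Bases 179 to 208 of that transcript, present in all 3, are shown because such a run cannot be assigned to one gene by sequence, and all of them are in capitals because all are shared.
LOC102639045: GAATTCACCAAGCGTTGGATTGTTCACCCA
This run was found on either strand in transcripts of 3 of 55450 annotated genes (0.00541%). Full-length nuclear rRNA was not among the sequences searched, so whether it holds this run was not tested. The run is therefore not shown to be limited to these genes. As a share of all counts, Lars2 did not follow LOC102639045, though the members lower the RIP share of every other row. Lars2 held 0.00773% of the RIP counts on average (40 to 802 counts) and 0.148% of the input counts (35 to 3180 counts). AA474408 had 0 counts in every RIP library and at most 9 in an input.

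The 10 rows together held 95.7% ± 0.81 of the RIP counts (SD, n = 24), between 93.7% in M141R number 9 and 96.7% in vector number 8. In the inputs they held 1.36% ± 1.07 (SD, n = 24), with a median of 1.07% and a range from 0.620% to 5.86%, and 1.16% on average without M141R input 9. All 24 RIP libraries lay above all 24 inputs. Everything else in a RIP library, that is 26889 rows, shared the remaining 64012 to 560574 counts. The RIP shares of those rows are lowered by this. A RIP share below the input share thus does not show that such a row was lower beside the other rows outside the members.

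ENSMUSG00000045999 alone took 61.1% ± 2.66 of the RIP counts (SD, n = 24; 56.6% to 67.0%) against 0.606% ± 0.470 of the input counts. Filip1l followed with 10.5% ± 1.27 in the RIP and 0.509% ± 0.267 in the input. Jarid2 held 6.76% ± 0.878 in the RIP and 0.0695% ± 0.191 in the input. The medians over the RIP libraries were 61.1%, 10.5% and 6.67%, and over the inputs 0.425%, 0.491% and 0.0246%. Without M141R input 9 the input mean of Jarid2 was 0.0307%. In all 3, every RIP library lay above every input library. ENSMUSG00000082697 held 5.50% ± 0.267 of the RIP counts, Tmtc2 3.96% ± 0.603, Zc3h7a 3.35% ± 0.410 and LOC102639045 3.12% ± 0.426. Their input means were 0.0339%, 0.0360%, 0.0368% and 0.0521%, and their input medians 0.0104%, 0.00756%, 0.0250% and 0.0329%. Without M141R input 9 the means were 0.0272%, 0.0111%, 0.0266% and 0.0359%, so that of Tmtc2 rested mostly on this library. Cntnap5b held 0.821% ± 0.111, Kpna1 0.372% ± 0.116 and Atf2 0.257% ± 0.0466 of the RIP counts, and the highest input share among these 3 was 0.0597%, of Cntnap5b in M141R input 9. Without M141R input 9 their input means fell from 0.00584% to 0.00350% for Cntnap5b, from 0.00397% to 0.00265% for Kpna1 and from 0.00178% to 0.00115% for Atf2. Their input counts were low, from 0 to 304 for Cntnap5b, 1 to 174 for Kpna1 and 1 to 82 for Atf2.

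**Figure D1:**
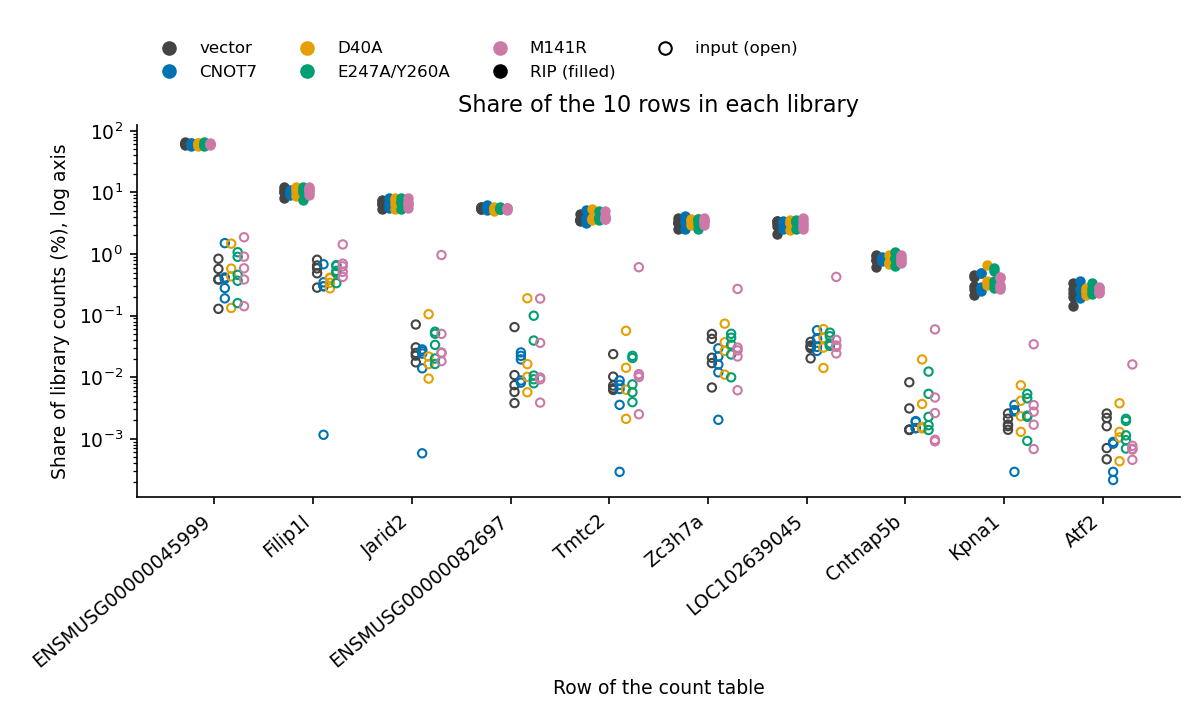
Share of the library counts (percent, log axis) of each of the 10 rows in every RIP (filled) and input (open) library, coloured by construct; an input with 0 counts is not drawn. The RIP values of a row lie close together for all constructs, from 61.1% on average for ENSMUSG00000045999 to 0.257% for Atf2, and above every input value of the same row.

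The list is not the 10 rows with the most RIP counts. By summed RIP counts they held ranks 1 to 8, 12 and 13. Galnt2, Fgfr2 and ENSMUSG00000052372 held ranks 9 to 11. Galnt2 took 0.696% of the RIP counts and 10.72% of the input counts on average, and Fgfr2 0.536% and 1.04%. These are shares of all counts, and the members lower those in the RIP. ENSMUSG00000052372 took 0.471% and 0.00330% (0.00104% without M141R input 9), so it too was higher in the RIP and was outside the list. The last member, Atf2, had 187881 RIP counts in all and the next row, Ccdc107, had 167711, but Ccdc107 held 13.02% of the input counts on average.

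All 10 members had a higher share in the RIP than in the input of the same construct and number in 24 of 24 pairs. That was so for 20 of the 26899 rows (0.0744%). In 10 members every RIP library exceeded every input library, which was so for 19 rows (0.0706%). As the members were chosen for this, nothing follows from these counts. The size of the ratio did vary between them. Over all pairs the geometric mean of RIP share over input share was 27.3 for Filip1l, 81.4 for LOC102639045, 133 for ENSMUSG00000045999 and 338 for ENSMUSG00000082697. Tmtc2 had the highest, 379 over the 23 pairs with more than 3 input counts, and Atf2 had 164 over 16 such pairs. A member's part in the summed member counts thus differed between the RIP and the input. Of those counts, ENSMUSG00000045999 made up 63.8% ± 2.90 in the RIP and 43.0% ± 16.8 in the input, and Filip1l 10.9% ± 1.29 and 43.8% ± 17.2.

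The summed share of the members in the precipitates differed little in percentage points between the 5 constructs, vector included. This sum took up nearly all counts, from 93.7% to 96.7% over the RIP libraries, so it had little room to differ. A small difference in it is a larger one, in proportion, in what was left for the other rows. The sum alone therefore does not show that the constructs were alike. The 10 rows together held 96.2% ± 0.691 of the counts in vector RIP, 95.8% ± 0.609 in CNOT7 RIP, 95.5% ± 0.947 in D40A RIP, 95.7% ± 0.790 in E247A/Y260A RIP and 95.5% ± 1.11 in M141R RIP (SD, n = 5, and 4 for D40A). These ranges overlap. At the same sample number, vector was higher in 16 of 19 comparisons, by 0.532 percentage points on average over all 19 (SD 0.586). In those 16 the other rows together thus held less of the counts in vector. Vector was above every other construct at 4 of 5 numbers, with number 10 the exception. The mean difference was 0.395 points from CNOT7, 0.602 from D40A, 0.493 from E247A/Y260A and 0.651 from M141R. These comparisons share the vector libraries and were chosen after seeing the data, and the sum was not tested. Single shares of ENSMUSG00000045999 in vector RIP 6 to 10 were 62.0%, 60.3%, 62.5%, 67.0% and 58.9%. In CNOT7 RIP 6 to 10 they were 61.1%, 61.5%, 63.4%, 63.6% and 57.0%. In D40A RIP 6, 8, 9 and 10 they were 58.4%, 62.7%, 64.4% and 56.6%. Number 9 was the highest and number 10 the lowest in each of these 3 constructs. In E247A/Y260A RIP 6 to 10 the shares were 58.9%, 61.6%, 60.5%, 65.4% and 57.7%, and in M141R RIP 60.8%, 61.1%, 60.8%, 63.0% and 57.8%. The same order of the extremes held there. For Filip1l, vector RIP 6 to 10 held 10.1%, 12.4%, 11.2%, 8.12% and 10.3%, and CNOT7 RIP 11.1%, 10.6%, 9.08%, 9.91% and 10.67%. These too overlap.

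Each construct was compared with vector in a fit of the whole table (edgeR's quasi-likelihood test, all 48 libraries in 10 groups, TMM scaling, 6931 rows, Benjamini-Hochberg adjustment over all rows, threshold 0.05). The comparison asks whether FLAG-CNOT7 or a mutant changed what was recovered relative to cells without the tag. None of the 10 members was called in CNOT7, D40A, E247A/Y260A or M141R RIP against vector RIP, where 0% of the rows were called in each. At an unadjusted p under 0.05 it was also 0 of 10 members in each by edgeR, beside 2.19% of rows higher and 1.17% lower for CNOT7, 6.19% and 0.476% for D40A, 3.74% and 1.13% for E247A/Y260A, and 4.01% and 0.851% for M141R. DESeq2 called 0 rows in these 4 comparisons as well. The members' log2 fold changes lay between -0.33 (Filip1l) and -0.03 (Atf2) for CNOT7, with a median of -0.24 and standard errors from 0.57 to 0.79. For M141R they lay between -0.38 (ENSMUSG00000082697) and -0.16 (Atf2), for D40A between -0.19 (Cntnap5b) and 0.19 (Kpna1) and for E247A/Y260A between -0.34 (ENSMUSG00000045999) and 0.03 (Kpna1). With the sample number as a block, the CNOT7 values lay between -0.31 and -0.008, with standard errors from 0.49 to 0.85. The lowest unadjusted p of a member in the 4 comparisons was then 0.488, in M141R RIP (edgeR's quasi-likelihood test). The sign of the values without this block depended on the scaling. Without TMM factors the members' median was 0.03 for CNOT7, 0.04 for D40A, 0.06 for E247A/Y260A and 0.03 for M141R, while the median of all rows tested moved from -0.02 to 0.21 for CNOT7 and from 0.19 to 0.50 for M141R.

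The standard errors depended on the libraries in the fit. With only the RIP libraries in the fit (1320 rows), the standard errors fell to between 0.13 and 0.34 for CNOT7. The rows tested and the scaling factors changed as well, and what lowered the standard errors was not tested. ENSMUSG00000045999 then had a log2 fold change of -0.18 ± 0.13 (SE) in CNOT7 RIP and -0.27 ± 0.13 in M141R RIP. ENSMUSG00000082697 in M141R RIP was the only member at an unadjusted p under 0.05 in this fit (edgeR's quasi-likelihood test, log2 fold change -0.28 ± 0.13, unadjusted p = 0.0421, adjusted p = 1.00), beside 0.909% of rows that were lower at that level. Its shares in M141R RIP 6 to 10 were 5.48%, 5.14%, 5.33%, 5.56% and 5.56% and in vector RIP 5.74%, 5.39%, 5.61%, 5.796% and 5.36%, which overlap.

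In the RIP libraries, the members moved by sample number more than by construct. In vector RIP 6 to 10, Jarid2 held 7.42%, 6.38%, 6.48%, 5.43% and 7.35% of the counts, and in CNOT7 RIP 6.51%, 6.57%, 6.91%, 5.66% and 8.21%. Over all constructs it held 5.35% to 5.66% of the counts in the 5 RIP libraries with number 9, below the lowest of the other 19 at 6.38%, and 7.35% to 8.26% in those with number 10. LOC102639045 held 2.11% to 2.58% with number 9, and Zc3h7a held 2.55% to 2.98%. Both lay below every RIP library with another number, of which the lowest held 2.87% of LOC102639045 and 3.11% of Zc3h7a. ENSMUSG00000045999 went the other way, with 64.7% ± 1.57 at number 9 and 57.6% ± 0.878 at number 10 (SD, n = 5 each). Tmtc2 stood out at number 10, with 4.48% to 5.38%, above the highest of the other RIP libraries at 4.11%. Filip1l averaged 8.71% ± 0.939 at number 9 and from 10.5% to 11.6% at the other numbers. The labels give only a number for each sample and do not say what samples with one number share. ENSMUSG00000082697 went the same way as ENSMUSG00000045999, with 5.81% ± 0.229 at number 9 and 5.26% ± 0.259 at number 10 (SD, n = 5 each). Shares within a library sum to 100% and are not independent of each other.

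Of the variance of log2 CPM over the 24 RIP libraries, the number accounted for 91.5% in Jarid2, 84.6% in Tmtc2, 82.4% in LOC102639045, 82.1% in ENSMUSG00000045999 and 50.4% in Atf2, the lowest member. The construct accounted for 1.11% in Jarid2 and at most 11.4%, in Atf2. In the inputs the number accounted for more than the construct in 8 of 10 members, the exceptions being Filip1l (11.6% for the number and 24.4% for the construct) and Jarid2 (20.1% and 20.4%). CNOT7 input 10 had 4 counts of Filip1l and 2 of Jarid2, and M141R input 9 had 4897 of Jarid2. The variance shares were not computed without these libraries. Any grouping also takes some variance by chance. In a fit of construct and number within the RIP libraries, chosen after seeing the data, the number passed an adjusted p of 0.05 in 10 of 10 members (edgeR's quasi-likelihood test), as it did in 74.6% of the 1320 rows. So the members did not stand out from the other rows by this count. Without TMM factors it was 9 of 10 members, beside 77.2% of rows, and ENSMUSG00000082697 was the exception. The construct term passed in 0 of 10 members and in 0.152% of rows with TMM factors, and in 0 of 10 and 0.606% without. The lowest adjusted p of a member for the construct was 0.175, in ENSMUSG00000045999 with TMM factors (edgeR's quasi-likelihood test), and it was 0.956 in that row without them. In the inputs the number passed in 3 of 10 members, beside 69% of 3848 rows (2 of 10 and 71.7% without TMM factors), and the construct in 0 of 10, beside 0% of rows.

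**Figure D2:**
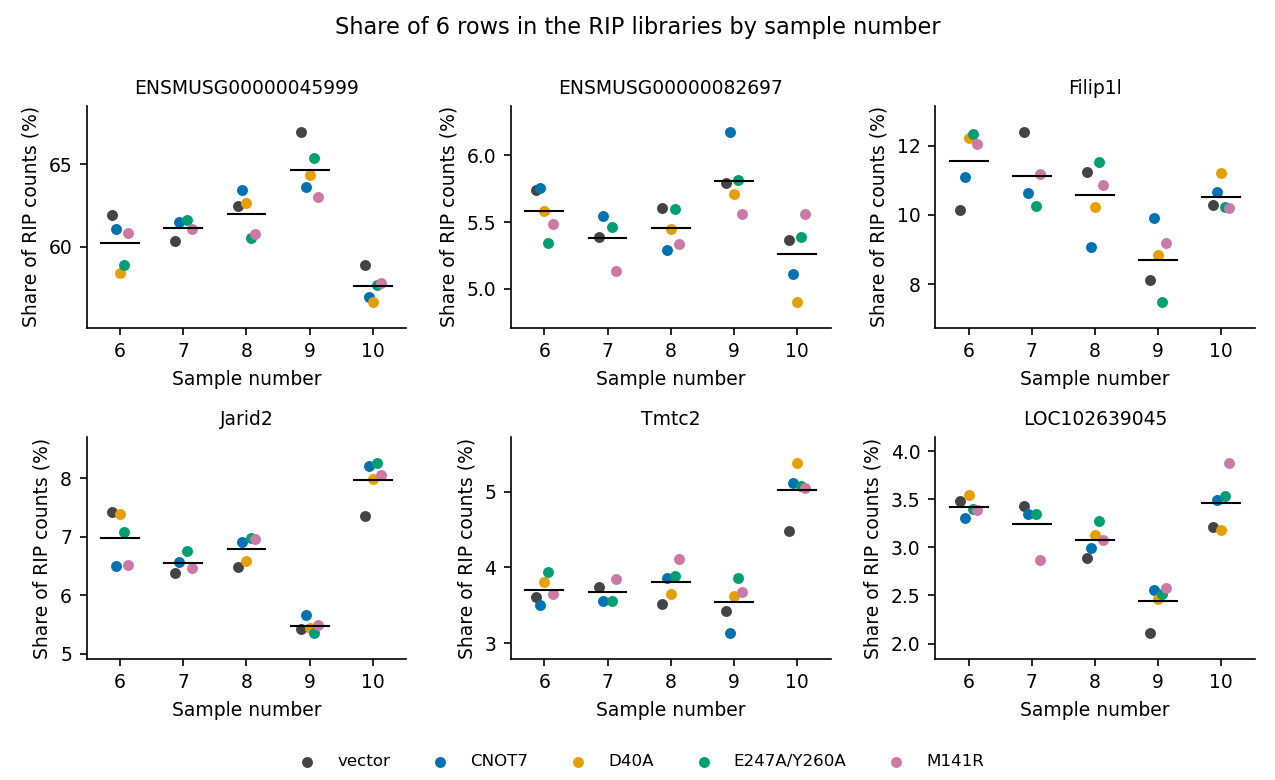
Share of the RIP counts (percent) of 6 rows by sample number, each point 1 library coloured by construct and each bar the mean of a number (n = 5, and 4 for number 7); the axes do not start at 0. Jarid2 and LOC102639045 were lowest at number 9 in all constructs, and Tmtc2 was highest at number 10.

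The ratio of 2 members to each other was nearly fixed for one pair. ENSMUSG00000082697 had 0.0900 counts for each count of ENSMUSG00000045999 in the RIP libraries, a mean log2 ratio of -3.47 with an SD of 0.06 over 24 libraries and a range from -3.58 to -3.36. For the other 8 members the SD of the log2 ratio to ENSMUSG00000045999 lay between 0.23 (Filip1l) and 0.44 (Kpna1). Jarid2 and LOC102639045 were the next closest pair with an SD of 0.11, then Jarid2 and Zc3h7a with 0.13. Over all 45 pairs of members the median SD was 0.25 in the RIP and 1.19 in the inputs (0.96 without CNOT7 input 10, and 0.86 also without M141R input 9), and the highest in the RIP was 0.52, for Filip1l and Kpna1. Between ENSMUSG00000082697 and ENSMUSG00000045999 it was 1.23 in the inputs (1.203 without both libraries), with a mean log2 ratio of -4.81. The near-fixed ratio was thus a property of the RIP libraries and was not seen in the inputs, where ENSMUSG00000082697 had 17 to 1114 counts. Counting error alone would give this pair an SD of 0.004 in the RIP and 0.20 in the inputs. For members with few input counts it would give much more. For Kpna1 and Atf2 in the inputs it was 0.92, beside an SD of 0.83, so the higher input SD of such pairs may be counting error.

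For scale, 34 rows had at least 100 counts in every RIP library, a set chosen after seeing the data that includes the members. Leaving out ENSMUSG00000045999 itself, the median SD of their log2 ratio to it was 0.35. Ordered by this SD, members and other rows were mixed, with ENSMUSG00000082697 at rank 1 and Kpna1 at rank 28. The lowest outside the members was 0.13, in ENSMUSG00000097625, which held 0.0128% of the RIP counts. By the likeness over all 48 libraries, the members had SDs from 0.79 (LOC102639045) to 1.99 (Filip1l), among the rows with a median of at least 10 counts in both RIP and input, while close other rows were Spata5 (4.08), ENSMUSG00000089855 (4.12), Mphosph8 (4.12) and Fgfr2 (4.18). That distance is set by the excess of the members in the RIP, by which they were chosen.

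**Figure D3:**
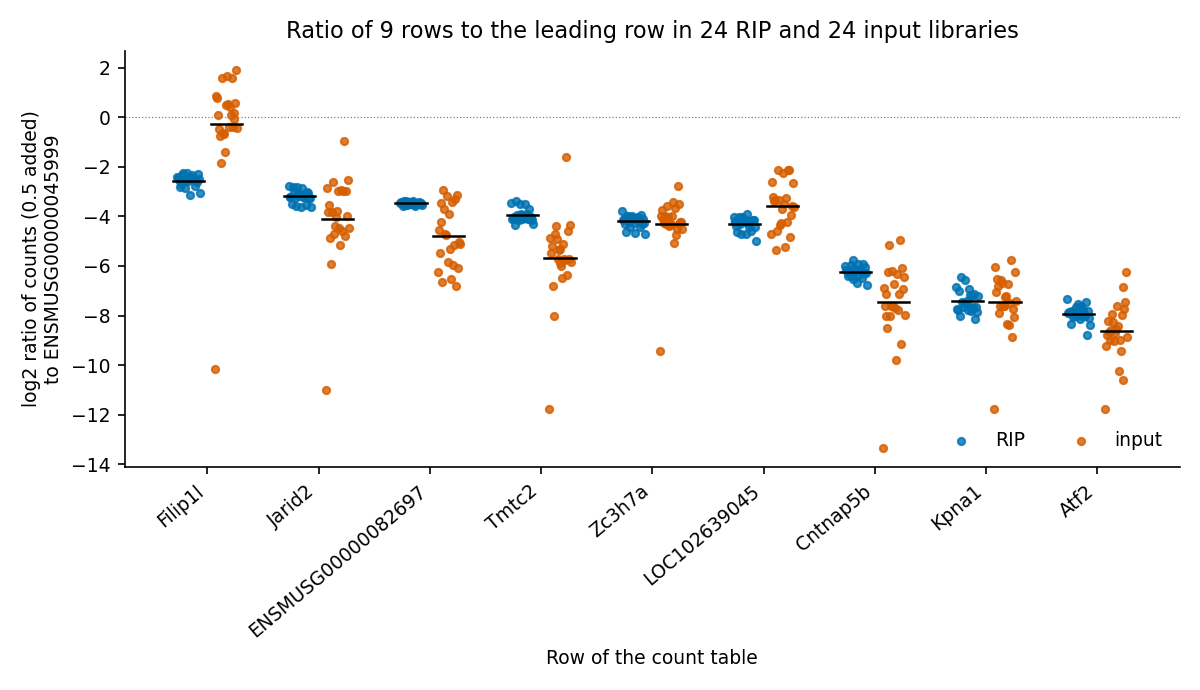
log2 ratio of counts to ENSMUSG00000045999, with 0.5 added to each count, for the other 9 rows in 24 RIP (blue) and 24 input (orange) libraries; bars are means. The RIP values of ENSMUSG00000082697 lie within -3.58 and -3.36, and the lowest input value of Filip1l is CNOT7 input 10 at -10.2.

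In the inputs the members were low and uneven, and a few libraries stood apart. In M141R input 9 the 10 rows held 5.86% of the counts, against 0.632% to 1.70% in the other M141R inputs. Tmtc2 had 3105 counts there (0.610%), which was 81.3 times the median share of the other 23 inputs. Jarid2 had 4897 counts (0.962%, 39.1 times that median) and ENSMUSG00000045999 had 9519 (1.87%, 4.49 times). The parts of the member counts were set beside their ranges in the RIP libraries. In M141R input 9, 2 members lay below these ranges and 5 above. Cntnap5b (1.02%), Kpna1 (0.583%) and Atf2 (0.275%) lay within. ENSMUSG00000045999 made up 31.9% of the member counts in M141R input 9, below the RIP range of 59.7% to 70.0%. Jarid2 made up 16.4% and Tmtc2 10.4%, above their RIP ranges, which ended at 8.64% and 5.69%.

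CNOT7 input 10 was the opposite case. Filip1l had 4 counts there, against 1010 to 7276 in the other inputs, Jarid2 2 counts, Tmtc2 1 count and Cntnap5b 0 counts. ENSMUSG00000045999 had 5173 counts (1.501%) and made up 94.8% of the member counts. Galnt2, at 10.72% of the input counts on average, was at 0 in this library. In D40A input 6, ENSMUSG00000082697 reached 1114 counts (0.191%), 18.8 times the median of the other inputs, and ENSMUSG00000045999 made up 61.3% of the member counts, within the RIP range. Of the other members, 4 lay outside their RIP ranges. ENSMUSG00000082697 made up 7.95% and Filip1l 17.2%, above ranges that ended at 6.51% and 12.8%, and Jarid2 made up 4.38% and Tmtc2 2.36%, below ranges that began at 5.67% and 3.30%. What sets these 3 libraries apart was not tested.

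**Figure D4:**
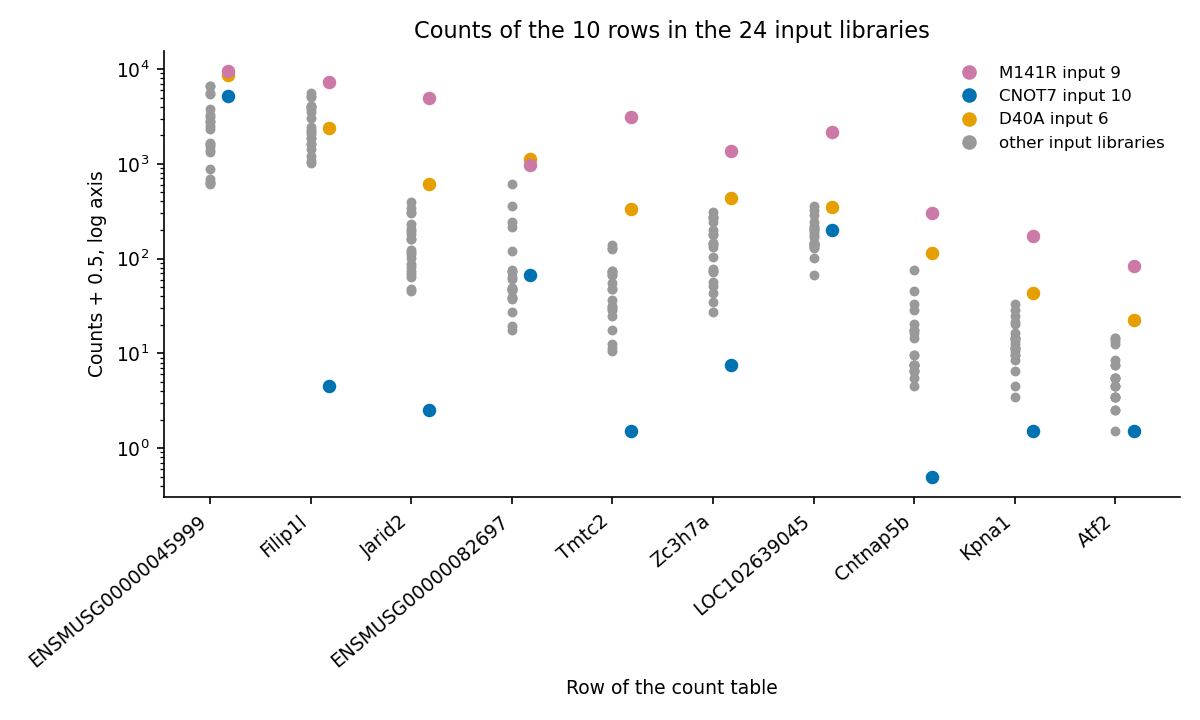
Counts plus 0.5 (log axis) of the 10 rows in the 24 input libraries, with M141R input 9, CNOT7 input 10 and D40A input 6 in colour. M141R input 9 was the highest for 9 of the 10 rows, with ENSMUSG00000082697 the exception, and CNOT7 input 10 had 0 to 7 counts in Filip1l, Jarid2, Tmtc2, Zc3h7a, Cntnap5b, Kpna1 and Atf2.

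Construct inputs were compared with vector inputs in the same fit of all 48 libraries. None of the 10 members was called in CNOT7, D40A, E247A/Y260A or M141R input, beside 0% of the 6931 rows in each. At an unadjusted p under 0.05, 0 of 10 members passed in CNOT7 input, beside 0.231% of rows higher and 0.447% lower, and 0 of 10 in E247A/Y260A input, beside 0.26% and 0.0721%. In M141R input, 7 of 10 members were higher at that level and 0 lower, beside 0.26% of rows higher and 0.231% lower. Tmtc2 led with shares in M141R input 6 to 10 of 0.0112%, 0.0109%, 0.00250%, 0.610% and 0.0100%, and in vector input 6 to 10 of 0.0237%, 0.00730%, 0.00620%, 0.00658% and 0.0102%. Only number 9 of the M141R inputs lay above all vector inputs. The log2 fold change of Tmtc2 was 3.73 ± 0.89 (SE; edgeR's quasi-likelihood test, unadjusted p = 9.2e-05, adjusted p = 0.318), that of Jarid2 was 2.85 ± 0.78 and that of LOC102639045 2.03 ± 0.60. DESeq2 called these 3 members among 4 rows (0.0577%), and edgeR without a filter on low counts called Tmtc2 among 2 of 26899 rows (0.00744%). Without M141R input 9 the log2 fold change of Tmtc2 turned to -0.39, that of Jarid2 to -0.26 and that of LOC102639045 fell to 0.03. With both M141R input 9 and CNOT7 input 10 left out, an alternative chosen after seeing the data, 0 of 10 members passed an unadjusted p of 0.05 upwards and 1 downwards by edgeR, beside 0.371% and 0.656% of rows. In D40A input, ENSMUSG00000082697 was the only member at that level (edgeR's quasi-likelihood test, log2 fold change 1.72 ± 0.84, unadjusted p = 0.0444, adjusted p = 1.00), beside 0.26% of rows higher and 0.548% lower. Without D40A input 6 it turned to -0.81, and with the sample number as a block it was 1.42 ± 0.81 (edgeR's quasi-likelihood test, unadjusted p = 0.0880). Leaving out a different single library could also raise it, as the range at the end of the text shows. Vector input 6 was itself high in ENSMUSG00000082697, at 0.0650% against at most 0.0108% in the other vector inputs. With M141R input 9 and CNOT7 input 10 left out, 4 members were higher in D40A input at that level and 0 lower, beside 0.507% and 0.879% of rows. That count rested on D40A input 6. With this library left out as well, 0 of 10 members were higher and 1 was lower, beside 1.07% and 1.33% of rows.

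Last, the share in the RIP was set against the share in the input of the same construct and number. For the 10 rows together the geometric mean of this ratio was 89.5 in vector, 104 in CNOT7, 90.6 in D40A, 78.7 in E247A/Y260A and 61.6 in M141R. Single pairs ranged from 53.9 (number 10) to 143 (number 8) in vector and from 60.3 (number 10) to 154 (number 6) in CNOT7. In D40A they ranged from 40.1 (number 6) to 155 (number 8), in E247A/Y260A from 48.9 (number 10) to 131 (number 8) and in M141R from 15.97 (number 9) to 152 (number 8). The ranges of all 5 constructs overlap. Without number 9 the geometric mean of M141R was 86.4. For ENSMUSG00000045999 alone the geometric means were 159 in vector, 146 in CNOT7, 128 in D40A, 126 in E247A/Y260A and 109 in M141R, with single pairs from 33.7 to 485. For Filip1l they were 19.5, 85.6, 29.9, 19.7 and 15.9 in the same order, where the value of CNOT7 held pair 10 at 9193 with its 4 input counts. Without pair 10 the CNOT7 value of Filip1l was 26.6. For LOC102639045 they were 101, 80.9, 94.1, 81.5 and 58.9, and the value of M141R was 104 without pair 9, which had 6.08. Without the same pairs, ENSMUSG00000045999 had 146 in M141R and 204 in CNOT7, so the order of the constructs rested on single pairs. By number, over constructs, the ratio of the 10 rows together was 144 at number 8 and between 61.1 and 80.4 at the other numbers. With TMM-scaled library sizes the same ratio was 2200 in vector and 1187 in M141R, so its size depended on the scaling.

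In the fit of the whole table, the ratio of RIP to input did not differ from vector in any of the 10 members for CNOT7, D40A, E247A/Y260A or M141R at the adjusted threshold, beside 0% of the rows. At an unadjusted p under 0.05 by edgeR, 0 of 10 members passed for CNOT7 (2.16% of rows higher, 0.88% lower), D40A (4.63% and 0.245%) and E247A/Y260A (2.54% and 0.736%). For M141R, 5 of 10 members were lower and 0 higher at that level, beside 0.649% of rows lower and 2.89% higher. With M141R input 9 and CNOT7 input 10 left out, it was 0 of 10 in either direction, beside 0.767% of rows lower and 2.76% higher. Tmtc2 was the furthest, at -3.95 ± 1.17 on the log2 scale (SE; edgeR's quasi-likelihood test, unadjusted p = 0.00127, adjusted p = 1.00), and turned to 0.13 without M141R input 9. For CNOT7 the members lay between -0.68 (LOC102639045) and 1.17 (Atf2), for D40A between -1.86 (ENSMUSG00000082697) and 0.38 (Filip1l), and for E247A/Y260A between -1.11 (ENSMUSG00000082697) and 0.03 (Atf2). Without D40A input 6 the D40A value of ENSMUSG00000082697 turned to 0.57 ± 1.14 (SE). Standard errors in these 3 comparisons lay between 0.81 and 1.199. All comparisons with vector share the vector libraries.

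**Figure D5:**
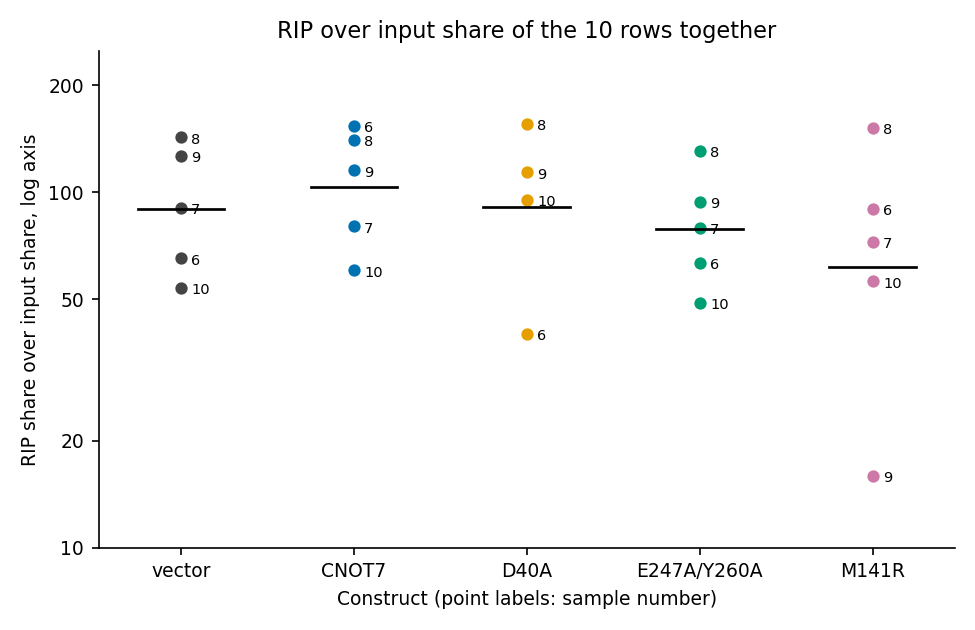
RIP share over input share (log axis) of the 10 rows together for each pair, labelled with its sample number, by construct; bars are geometric means. The lowest pair is M141R number 9 at 15.97 and the constructs overlap, with means from 61.6 in M141R to 104 in CNOT7.

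Of 25 listed structural and other abundant noncoding RNAs, 15 were in the table, and 7 of these had a median of 0 counts in the inputs. Together the 15 held 0.325% of the input counts on average and 0.00131% of the RIP counts. The RIP value is lowered by the members, as for every row outside them. Most of the input value came from 1 row. Rn7s1, the RNA of the signal recognition particle, held 0.242% of the input counts and reached at most 36 counts in a RIP library. Rmrp held 0.0374% in the input and Malat1 0.0317%, against at most 84 and 36 counts in a RIP library, and the strand of these counts is open to the doubt given above. The rRNA genes Rn45s, Rn18s and Rn28s1 were not among the rows analysed here.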

How the data were processed

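Counts of 48 libraries of 4T1 cells were analysed. Per the labels, the authors used BWA, HTSeq and mm9, in an order and with versions not given in the sources used here. They deposited raw counts for 26899 rows, with no normalization, and 0 sample columns went unused. Depth was 337861 to 10719137 counts, so a row with few counts is imprecise, and libraries of one group differed by more than sampling noise. Shares are counts over the library total. Construct comparisons used edgeR 4.0.16 (filterByExpr, TMM, quasi-likelihood test, two-sided, threshold 0.05) in R 4.3.3, with DESeq2 1.42.0 and limma 3.58.1 as alternatives, checked on simulated counts. Log2 ratios had 0.5 added. Positions came from GENCODE M21 (GRCm38) by identifier, and sequences were compared with blastn 2.17.0+. Python 3.11.15 with pandas 2.3.3 was used for the rest. Nothing in the labels says that samples came from separate cultures, so p-values measure the spread between these samples, which may be technical.

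The members, the gene lists and the tests were chosen with earlier results of these data known. The text names the 10 members, the 3 other rows with the most RIP counts, the 5 rows most like ENSMUSG00000045999 (1 of which is not reported here) and up to 4 genes of each list. Cmss1, Gm23935, Lars2, Actr8, Mthfsd, Ankrd12, AA474408, Ccdc107, Gm37376, Gm17300, Iffo1, ENSMUSG00000097625 and Cnot7 were named after their values were seen. Other alternatives were library size alone, no filter or at least 10 counts in every library, the sample number as a block, and each library left out. Deviations from the group means correlated between inputs that shared a number (lowest 0.152), and the fit with the number as a block is given where it changed a call. Between RIP groups the lowest correlation was 0.0377.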

Additional observations from a re-analysis of the deposited data

Results flagged for a closer look

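Of 110 sets of values, that is 10 members and their sum in 10 groups, 24 held a library whose gap to the nearest other exceeded the limit of Dixon's test, which chance exceeds in about 1 in 20 groups. The sets are not independent, since they come from the same libraries. Of the 24, 10 were M141R input 9, with 5.86% of the counts for the 10 rows together, 1.43% for Filip1l, 0.962% for Jarid2, 0.610% for Tmtc2, 0.425% for LOC102639045, 0.271% for Zc3h7a, 0.189% for ENSMUSG00000082697, 0.0597% for Cntnap5b, 0.0342% for Kpna1 and 0.0161% for Atf2. The other M141R inputs held at most 1.70% together.

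D40A input 6 was high in ENSMUSG00000082697 (0.191%), Jarid2 (0.105%) and Cntnap5b (0.0194%). Vector input 6 was high in ENSMUSG00000082697 (0.0650%), Jarid2 (0.0716%), Tmtc2 (0.0237%) and Cntnap5b (0.00826%). CNOT7 input 10 was high in ENSMUSG00000045999 (1.501%) and low in Cntnap5b (0%, 0 counts) and Kpna1 (0.00029%, 1 count).

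In the RIP libraries, number 10 was high in Tmtc2 in D40A (5.38%, the others at most 3.81%) and in E247A/Y260A (5.07%, the others at most 3.93%). D40A RIP 10 was also high in Kpna1 (0.656%), and E247A/Y260A RIP 9 was low in LOC102639045 (2.51%). No explanation of these libraries was tested.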

How the results depend on the processing

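Rows called in RIP or ratio comparisons with vector stayed at 0 under all alternatives, as did members called outside M141R input; the term for construct within the RIP called 2 rows (8 without TMM factors), none a member. In M141R input, DESeq2 called 4 rows and 3 members, and testing without a filter called 2 rows and 1 member; with each library left out, rows called ranged from 0 to 2 and members from 0 to 1 (without M141R input 8). Without a filter, 18 rows were called in CNOT7 input, and limma called 2 in D40A input, none a member. With all number 9 libraries left out, the log2 fold change in M141R input was -0.50 for Tmtc2 and -0.39 for Jarid2, and the ratio of Tmtc2 was 0.30. Leaving out M141R input 9 and CNOT7 input 10 (chosen after seeing the data) gave -0.38, -0.25 and 0.12, and with D40A input 6 left out too -0.39, -0.25 and 0.13, with -0.81 for ENSMUSG00000082697 in D40A input. With each library left out these ranged from -0.39 to 4.38, from -0.26 to 3.47 and from -4.63 to 0.13, and ENSMUSG00000082697 in D40A input from -0.81 to 3.33.

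Without ENSMUSG00000045999 in members and total, the members held 89.0% of RIP counts. TMM-scaled, RIP over input was 2200 in vector, 2035 in CNOT7, 1859 in D40A, 1598 in E247A/Y260A, 1187 in M141R and 1731 over all. The sample number as a replicate block, also without TMM factors, called 0 members in every comparison. It was not taken as a pairing in RIP against vector RIP, where not every correlation passed 0.1. At least 10 counts in every library left 208 rows and 3 members. Low input counts limit Atf2, Kpna1 and Cntnap5b.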
